A study of Mus musculus with 12 samples.

Results

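Mut-1 and WT-1 are a mutant and a wild-type line of mouse embryonic stem cells, the self-renewing cells obtained from the inner cell mass of the blastocyst. The 3 libraries labelled Mut-1 and the 3 labelled WT-1 were taken as the comparison, which is 6 of the 12 RNA-seq libraries in the series. All genes were used: of 31641 gene symbols counted, 16533 had enough reads to be tested. Mut-1 carries the genotype label Tin2 S341X, and WT-1 is labelled wild type. Whether 1 or both copies of the gene carry the change is not given in the sources used here. Both lines share the C57BL/6 strain, the culture medium with serum and the cytokine LIF, and a layer of mouse embryonic fibroblasts (MEFs) as feeders, from which the stem cells were not separated before RNA extraction. Another mutant and wild-type pair, Mut-2 and WT-2, was grown in the same way and is set beside this pair for comparison. Its libraries were also fitted together with those of Mut-1 and WT-1, so they bear on the p-values below. Each genotype is represented by 1 line in this comparison, and the libraries of a line are called technical replicates by the submitters, so the p-values below measure only the spread between libraries and not the spread between independent lines.

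Tin2 is the older name of Tinf2. The TIN2 protein sits at the centre of shelterin, the complex that covers telomeres: it joins TRF1 and TRF2, which bind double-stranded telomere repeats, to TPP1 and through it to POT1, which binds the single-stranded end. Shelterin keeps chromosome ends from being treated as DNA breaks and recruits telomerase. Cells that keep telomeres long by recombination instead are said to use alternative lengthening of telomeres (ALT), and the series asks how a loss of TIN2 bears on ALT and on differentiation.

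The libraries were of similar depth, with 15702083, 14766477 and 16816094 counts in Mut-1 replicates 1, 2 and 3, and 17211009, 16971313 and 17891894 counts in WT-1 replicates 1, 2 and 3. They were not equally alike within a line. The chi-square of the counts per degree of freedom, where 1 would be sampling noise alone, was 10.9 between Mut-1 replicates 2 and 3, and 27.3 and 30.4 between Mut-1 replicate 1 and these. In WT-1 it was 1.62 between replicates 1 and 2, so these libraries were nearly the same but still above sampling noise, and 38.4 between each of them and replicate 3. WT-1 replicate 3 was nearer to Mut-1 replicates 1, 2 and 3, at 24.8, 16.4 and 15.4, than to its own line. The count of called genes and the printed list medians that turn on a single library are therefore given with their values without it. The stem cell identity in the labels was borne out by the defining markers: Nanog had 646.7 to 999.9 CPM (read counts scaled to library size) in Mut-1 libraries and 736.5 to 1001 CPM in WT-1 libraries, and Pou5f1 had 240.8 to 312.4 CPM in Mut-1, against 241.03 to 385 CPM in WT-1. Fibroblast transcripts were present as well. The 35 feeder markers took 2.21%, 1.16% and 0.998% of the counts in Mut-1 replicates 1, 2 and 3, and 0.957%, 0.989% and 1.29% in WT-1. The mean share was higher by 0.379 percentage points in Mut-1, with overlapping libraries and a two-sided exact permutation p of 0.5, where 3 against 3 libraries cannot give a p below 0.1.

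Tinf2 itself was lower in Mut-1. It had 29.8, 25.2 and 20.1 CPM in Mut-1 libraries, against 69.2, 64.9 and 57.7 CPM in WT-1 libraries, from 324 to 492 reads per Mut-1 library and 1029 to 1182 reads per WT-1 library. The libraries did not overlap. The log2 fold change was -1.35 ± 0.17 (standard error), with an adjusted p of 0.00297 in edgeR's quasi-likelihood test with Benjamini-Hochberg adjustment. Tinf2 lies on the minus strand of chr14:55674689-55681820 in GRCm38. The serine named in the genotype label, S341X, is codon 341 of 414 in transcript Tinf2-201, where it is AGT at chr14:55679924-55679926 in exon 7 of 9. The reference sequence around it, read 5′ to 3′ on the coding strand at chr14:55679894-55679930 with the serine codon in capitals, is shown because it is where the label places the change.
Tinf2 codon window: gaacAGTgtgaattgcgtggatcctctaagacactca

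Across all genes, 54 of 16533 (0.327%) differed between Mut-1 and WT-1 at an adjusted p under 0.05. Of these, 49 (0.296%) were higher in Mut-1 and 5 (0.0302%) were lower. At a log2 fold change of at least 1, 29 (0.175%) were higher, and all 5 lower genes (0.0302%) had a log2 fold change of -1 or less. Without adjustment, p was under 0.05 for 1070 higher genes (6.47%) and 795 lower genes (4.81%). In each of the 54 called genes the 3 Mut-1 libraries lay wholly above or wholly below the 3 WT-1 libraries. Such non-overlap was frequent, at 1450 higher genes (8.77%) and 1250 lower genes (7.56%) of all tested. The count of called genes depended on the libraries used. Without WT-1 replicate 3, 447 genes passed, among them all 54. That fit leaves WT-1 only its near-identical replicates 1 and 2, so within WT-1 it sees only their small spread. Calls and p-values given below without WT-1 replicate 3 share this limit. Leaving out Mut-1 replicate 1 gave 52 genes, Mut-1 replicates 2 and 3 gave 19 and 17, and WT-1 replicates 1 and 2 gave 16 and 17. With the near-identical WT-1 replicates 1 and 2 summed to 1 library, 15 genes passed. Fitted without the Mut-2 and WT-2 libraries, 28 genes passed, 25 of them among the 54. The 49 higher genes were not spread evenly over the genome: 25 lie at the end of chromosome 5, 7 on chromosome 14 and 3 at the end of chromosome 10. The other 14 were not placed in these regions, among them AC110377.1, which had no known position.

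**Figure D1:**
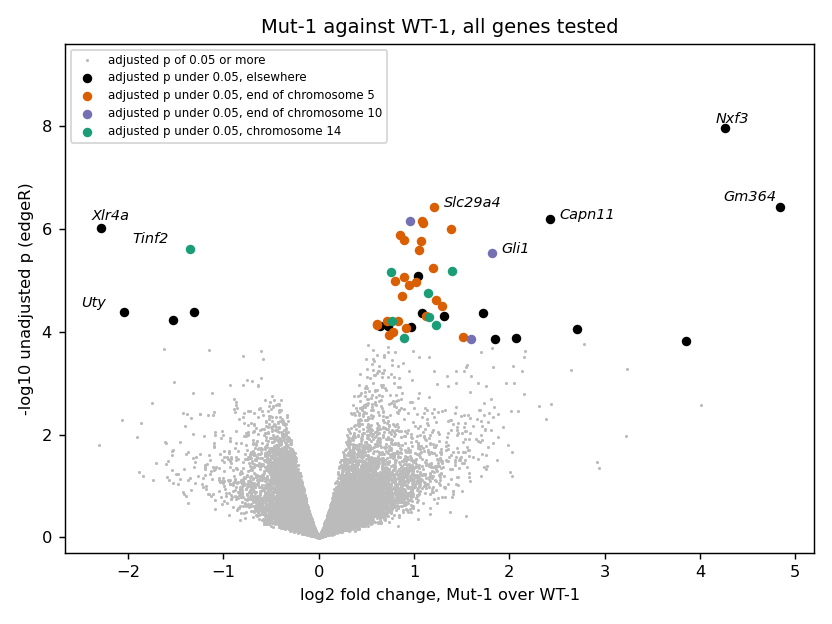
Each point is 1 of 16533 genes tested, with the log2 fold change of Mut-1 over WT-1 on the x axis and -log10 of the unadjusted edgeR p on the y axis. The 54 coloured or black points passed an adjusted p of 0.05, with colours for the chromosome regions; 25 of them are at the end of chromosome 5, and 5 of the 54 are on the negative side.

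A smaller set of 14 genes passed the adjusted threshold in every one of 16 alternative analyses, which changed the tool, the filter, the normalization, the covariates or the libraries used. The 12 higher ones were Nxf3, Gm364, Capn11, Gli1, Pawr, Slc29a4, Lmtk2, Rnf216, Ap5z1, B3glct, Fam220a and Kdelr2, and the 2 lower ones were Tinf2 and Xlr4a. Ccz1 and Rbak passed in 15. For the other called genes named below, the number of these 16 alternatives in which the gene passed is given.

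Among the 14 higher genes not placed in the 3 regions, the changes with the smallest p were in genes nearly silent in WT-1. Nxf3, an X-linked relative of the mRNA export factor Nxf1, had 13.1, 9.87 and 14.1 CPM in Mut-1, against 0.527, 0.473 and 0.896 CPM in WT-1. That is a log2 fold change of 4.27 ± 0.34, or 19.2-fold, with an adjusted edgeR p of 0.000178. Gm364, a predicted protein-coding gene at chrX:57409154-57488767, had 33.9, 44.02 and 62.6 CPM in Mut-1, against 0.468, 0.947 and 3.42 CPM in WT-1 (log2 fold change 4.84 ± 0.52, adjusted edgeR p 0.00181). Capn11, a calpain protease known from the testis, had 7.32, 7.45 and 6.46 CPM in Mut-1, against 0.995, 1.07 and 1.85 CPM in WT-1 (log2 fold change 2.43 ± 0.27, adjusted edgeR p 0.00181). In each of these 3 genes WT-1 replicate 3 was the highest of the WT-1 libraries, yet it stayed below every Mut-1 library.

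The remaining genes outside the regions changed less or were of low level. Spp1, the gene of the secreted phosphoprotein osteopontin, had 1278, 1139 and 1349 CPM in Mut-1, against 517.5, 504.7 and 758.7 CPM in WT-1. Its log2 fold change was 1.08 ± 0.18 with an adjusted edgeR p of 0.0235, and it passed in 9 of the 16 alternatives. Spp1 is also on chromosome 5, but far before the region at its end. Aox3, an aldehyde oxidase, had 6.47, 7.38 and 7.2 CPM in Mut-1, against 2.22, 1.89 and 2.24 CPM in WT-1, a log2 fold change of 1.72 ± 0.29 that passed in 11 alternatives. Nkx6-3, a homeobox transcription factor, had 15.4, 15 and 19.3 CPM in Mut-1, against 5.33, 6.45 and 8.18 CPM in WT-1 (log2 fold change 1.32, 10 alternatives). Ccdc141, a coiled-coil protein gene, had 28.6, 27.7 and 31 CPM in Mut-1, against 13.8, 12.8 and 15.7 CPM in WT-1 (log2 fold change 1.04, 12 alternatives). Msln, the gene of the cell surface protein mesothelin, had 17.9, 15.7 and 18 CPM in Mut-1, against 8.84, 9.88 and 7.62 CPM in WT-1 (log2 fold change 0.97, 8 alternatives). In all of these the groups were separated, most narrowly in Spp1. At low levels, Pof1b, an actin-binding protein gene on the X chromosome, had 1.37 to 2.76 CPM in Mut-1, against 0.234 to 0.473 CPM in WT-1 (8 alternatives), and Nell2, a secreted glycoprotein gene of the nervous system, had 2.21 to 4.97 CPM in Mut-1, against 0.468 to 1.06 CPM in WT-1. The Nell2 call passed in 6 alternatives. One called gene is a processed pseudogene, Rpl21-ps15, with a log2 fold change of 0.73 that passed in 8 alternatives. Its parent gene Rpl21, which encodes a ribosomal protein, is at the end of chromosome 5 with a log2 fold change of 0.66 and an adjusted edgeR p of 0.140, and reads of the parent and the copy cannot be told apart with certainty.

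**Figure D2:**
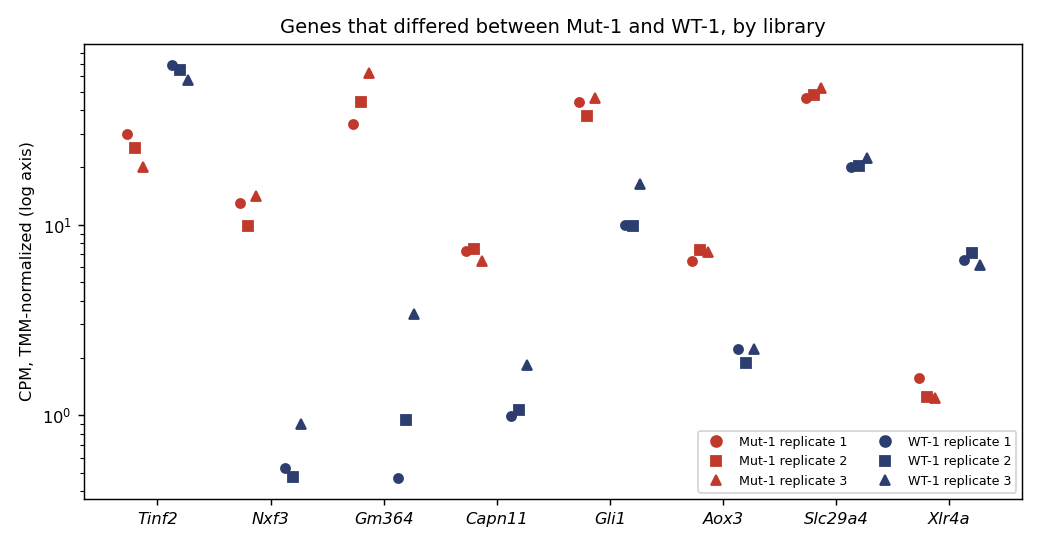
Normalized CPM on a log axis for 8 genes, with 1 point for each of the 3 Mut-1 libraries (left, red) and the 3 WT-1 libraries (right, blue) of a gene. Tinf2 and Xlr4a are lower in all Mut-1 libraries and the other 6 genes higher, and WT-1 replicate 3 is the WT-1 library nearest to Mut-1 for Nxf3, Gm364, Capn11 and Gli1.

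The 5 lower genes were Tinf2, Xlr4a, Xlr5a, Uty and Gm20939. Xlr4a and Xlr5a belong to the X-linked lymphocyte-regulated family, a cluster of near-identical genes that includes imprinted members, so that reads may have been divided among the copies. Xlr4a had 1.57, 1.24 and 1.24 CPM in Mut-1, against 6.55, 7.1 and 6.16 CPM in WT-1, a log2 fold change of -2.28 ± 0.27 with an adjusted edgeR p of 0.00183. Xlr5a had 3.03, 3.31 and 3.91 CPM in Mut-1, against 7.84, 8.4 and 13.3 CPM in WT-1, a log2 fold change of -1.53 ± 0.26 that passed in 8 of the 16 alternatives. The other tested members of the family were looked up after these values were seen. Xlr3a had 6.39 to 9.66 CPM in Mut-1, against 16.2 to 29.8 CPM in WT-1 (adjusted edgeR p 0.0608), and Xlr3b had 7.26 to 9.38 CPM in Mut-1, against 17.3 to 19.8 CPM in WT-1 (adjusted edgeR p 0.0614). Xlr5b and Xlr4b also did not overlap, at log2 fold changes of -1.52 and -1.34, whereas Xlr5c and Xlr3c overlapped. Uty, the Y-linked relative of the histone demethylase gene Kdm6a, had 2.78, 0.828 and 1.55 CPM in Mut-1, against 7.49, 6.39 and 7.62 CPM in WT-1 (log2 fold change -2.04 ± 0.34, adjusted edgeR p 0.0235, 10 alternatives). Its neighbour Ddx3y, an RNA helicase gene of the Y chromosome, had 9.5, 7.73 and 3.85 CPM in Mut-1, against 13.8, 14.8 and 17.4 CPM in WT-1, with an adjusted edgeR p of 0.168. Eif2s3y, also Y-linked and chosen after its values were seen, overlapped between the lines, with 6.02 to 10.04 CPM in Mut-1, against 9.66 to 14.1 CPM in WT-1. The long non-coding RNA Gm20939 had 12.5, 12.4 and 14.9 CPM in Mut-1, against 34.5, 30.5 and 33.7 CPM in WT-1 (log2 fold change -1.31 ± 0.22, 10 alternatives).

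The largest block of higher genes was at the end of chromosome 5. Along this chromosome a step up in the log2 difference between the lines was placed at Amz1, a metallopeptidase gene at chr5:140724127-140761439. The region was taken from there to the last gene. Its edge was not sharp. Ttyh3 and Iqce, shortly before Amz1, had log2 differences of 0.35 and 0.466. Gna12 and Foxk1, after it, had 0.143 and 0.365, and Ap5z1, the next gene, had 1.355. The step was placed where it removed most of the scatter of these same differences between the lines. The shift within the region and its counts of higher genes are therefore a description and not a test of the region. Of the 75 genes there that averaged 5 CPM or more, each lay above the median of the other autosomes, with a median shift of 0.71 on the log2 scale, which is 1.64-fold. By library, the shift against the mean of the 12 libraries was 0.452, 0.576 and 0.663 in Mut-1 and -0.178, -0.176 and -0.159 in WT-1. It lay between -0.235 and -0.173 in the Mut-2 and WT-2 libraries, which did not enter the placing of the step. WT-1 replicate 3 lay with the other WT-1 libraries here. Of 116 genes tested in the region, 25 (21.6%) were called higher, against 0.296% of all genes, and none lower. In 87 (75%) Mut-1 was higher without overlap, against 8.77% of all genes.

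The called genes of this region encode proteins of varied function. Slc29a4, a transporter of monoamines, had 46.05, 47.7 and 52.3 CPM in Mut-1, against 20.2, 20.4 and 22.5 CPM in WT-1 (log2 fold change 1.21 ± 0.13, adjusted edgeR p 0.00181). Rnf216, a ubiquitin ligase gene, had 123, 155 and 164 CPM in Mut-1, against 67.3, 69.1 and 72.3 CPM in WT-1 (log2 fold change 1.09). B3glct, a glucosyltransferase gene, had 66.2, 73.3 and 73.9 CPM in Mut-1, against 29.1, 31.1 and 39.4 CPM in WT-1 (log2 fold change 1.10). In each the lowest Mut-1 library was well above the highest WT-1 library. Ap5z1, a subunit of an adaptor complex of late endosomes, had 58.6, 87.6 and 75 CPM in Mut-1, against 28.9, 27.6 and 28 CPM in WT-1 (log2 fold change 1.39). Kdelr2, a receptor that returns proteins to the endoplasmic reticulum, had 148, 164 and 168 CPM in Mut-1, against 89.3, 88.7 and 87.7 CPM in WT-1 (log2 fold change 0.85). Rac1, the small GTPase that directs actin assembly, had 242, 282 and 338 CPM in Mut-1, against 154, 142 and 152 CPM in WT-1 (log2 fold change 0.94, 9 alternatives). The kinase gene Cdk8 of the Mediator complex had 92.8, 106 and 102 CPM in Mut-1, against 61.3, 66.5 and 69 CPM in WT-1 (log2 fold change 0.61, 9 alternatives). The shift was not of 1 size. Several genes of the region that matter for DNA repair and transcription were not called: Brca2 had a log2 fold change of 0.59 and an adjusted edgeR p of 0.156, and Trrap and Pms2, chosen after their values were seen, had log2 fold changes of 0.49 and 0.67. Actb, the actin gene often used as a reference, lies in the region and overlapped between the lines, with 2045, 3348 and 3707 CPM in Mut-1, against 2623, 2607 and 2681 CPM in WT-1.

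The end of chromosome 10, from the deubiquitinase gene Usp44 at chr10:93831555-93858088 onward, was shifted less. Its start was placed in the same way from these same differences. The shift and the counts of higher genes here are therefore also a description and not a test of the region. Shortly before the start, Elk3 and Lta4h had log2 differences of 0.28 and 0.292, and Gm3571, the gene directly before it, had -0.967. The median over 146 genes was 0.34 on the log2 scale, or 1.26-fold, and 140 of them lay above the median of the other autosomes. The shift by library was 0.235, 0.226 and 0.281 in Mut-1 and -0.118, -0.137 and -0.037 in WT-1, and between -0.092 and -0.047 in the Mut-2 and WT-2 libraries. Of 190 genes tested, 3 were called higher (1.58%, against 0.296% of all genes) and 64 (33.7%) were higher without overlap, against 8.77% of all genes. The called genes were Gli1, Pawr and Cpm. Pawr, which encodes the pro-apoptotic protein Par-4, had 99.96, 102 and 109 CPM in Mut-1, against 50.04, 53.5 and 56.03 CPM in WT-1 (log2 fold change 0.96 ± 0.11, adjusted edgeR p 0.00181). The changes of Pawr and Gli1 were larger than the median shift of the region. Ppp1r12a, a myosin phosphatase subunit gene, had 151, 172 and 164 CPM in Mut-1, against 112, 109 and 118 CPM in WT-1, with an adjusted edgeR p of 0.0526. Cpm, the carboxypeptidase M gene, had 6.05 to 6.89 CPM in Mut-1, against 1.36 to 2.86 CPM in WT-1, and was called in 7 of the 16 alternatives. Mdm2, Timeless and Prim1, chosen after their values were seen, are in the region too and had log2 fold changes of 0.11, 0.02 and 0.01.

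On chromosome 14, which carries Tinf2, the shift ran over the whole chromosome. The median over 398 genes was 0.35 on the log2 scale in Mut-1 against WT-1, and 0.45 in Mut-2 against WT-2. By library it was 0.109, 0.185 and 0.203 in Mut-1 and -0.206, -0.197 and -0.128 in WT-1. Of 540 genes tested, 7 (1.30%) were called higher, against 0.296% of all genes, and Tinf2 alone was called lower. In 216 (40%) Mut-1 was higher without overlap, against 8.77% of all genes. Uggt2, a folding sensor of the endoplasmic reticulum, had 33.04, 34.9 and 33 CPM in Mut-1, against 11.4, 11.6 and 15.4 CPM in WT-1 (log2 fold change 1.39 ± 0.19, adjusted edgeR p 0.00617, 13 alternatives). Ripk3, the kinase of necroptosis, had 89.9, 92.2 and 102 CPM in Mut-1, against 56.7, 56.2 and 55.1 CPM in WT-1 (log2 fold change 0.76, 11 alternatives). Spry2, a feedback inhibitor of FGF signalling, had 161, 216 and 201 CPM in Mut-1, against 81.8, 79.2 and 98.9 CPM in WT-1 (log2 fold change 1.15, 11 alternatives). Shisa2, an inhibitor of Wnt and FGF receptor maturation, had 24.1, 27.6 and 37.2 CPM in Mut-1, against 10.4, 12.3 and 15.2 CPM in WT-1 (log2 fold change 1.23, 10 alternatives). The others were Gng2, a G-protein subunit gene, Fndc3a, a fibronectin-domain protein gene, and Tgm1, the transglutaminase gene of the epidermis, at log2 fold changes of 1.15, 0.77 and 0.90. They passed in 10, 8 and 6 of the 16 alternatives.

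**Figure D3:**
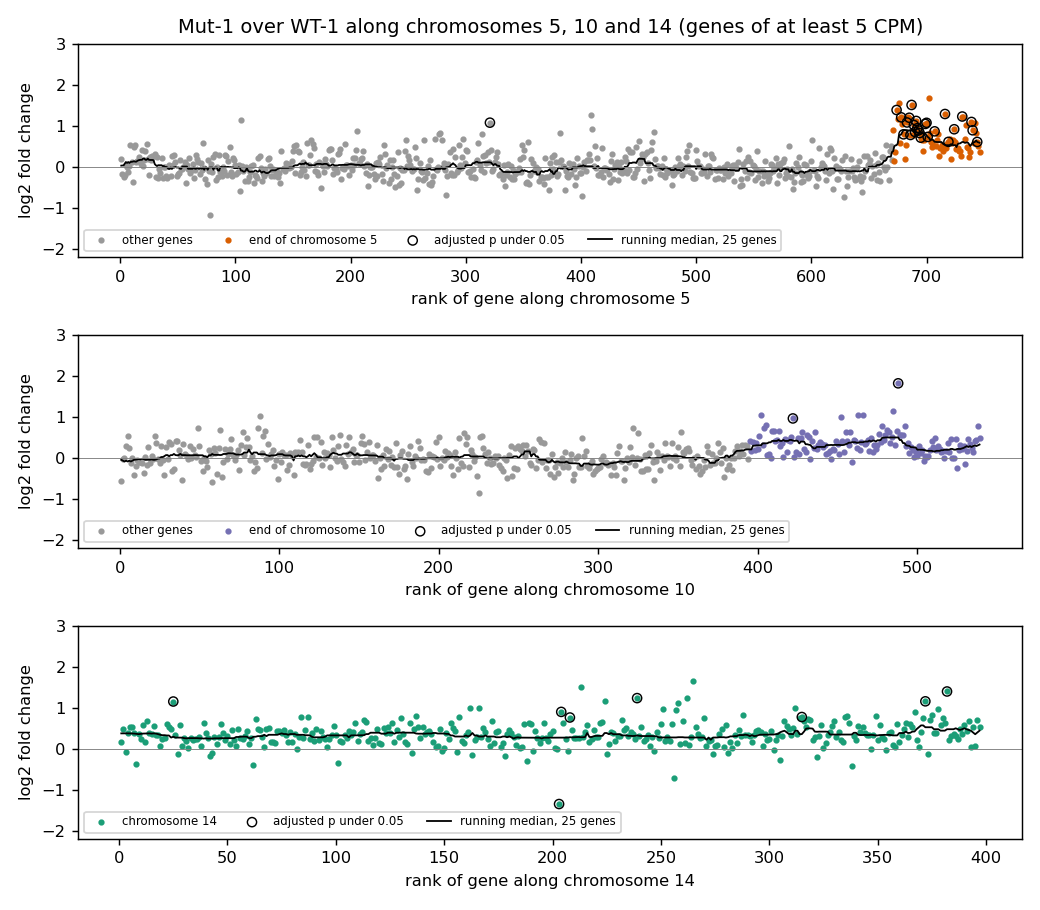
Log2 fold change of Mut-1 over WT-1 for genes that average 5 CPM or more, in their order along chromosomes 5, 10 and 14, with called genes ringed and a running median drawn as a line. The line steps up to about 0.7 at the end of chromosome 5 and is raised at the end of chromosome 10. It is also raised, unevenly, along chromosome 14, where Tinf2 is the ringed point below 0.

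The same 54 genes were then followed in the Mut-2 and WT-2 libraries, which are different lines and share no control with this pair. In that pair 153 genes (0.925%) were called, 121 higher (0.732%) and 32 lower (0.194%). Of the 49 genes higher in Mut-1, 6 were also called higher in Mut-2, which is 12.2% of the 49 and 4.96% of the 121. They were Aox3, Msln and, on chromosome 14, Spry2, Shisa2, Ripk3 and Uggt2. Tinf2 was the 1 lower gene called in both. The 25 called genes at the end of chromosome 5 had a median log2 fold change of 0.95 in Mut-1 against WT-1 and 0.01 in Mut-2 against WT-2, where none of them was called. The 7 higher genes of chromosome 14 had medians of 1.15 and 0.79. A test of the difference between the pairs was passed by 12 genes (0.0726%; an unadjusted p under 0.05 was found for 8.07%), and 9 of the 54 were among them: Nxf3, Gm364, Slc29a4, Lmtk2, Rnf216, Fam220a, Pawr, Ccdc141 and Uty. Nxf3, for example, had 2.40, 1.88 and 3.05 CPM in Mut-2, against 2.66, 1.9 and 3.37 CPM in WT-2. Its level in both lines of that pair was thus between those of WT-1 and Mut-1. Capn11 had 16.4, 13.6 and 10.2 CPM in Mut-2, against 8.63, 7.61 and 7.01 CPM in WT-2, so WT-1 was the line that stood low, and the difference between pairs had an adjusted edgeR p of 0.19. For Xlr4a, WT-1 was the line that stood high: the gene had 1.11 to 1.94 CPM in Mut-2 and 1.9 to 2.23 CPM in WT-2, whereas every WT-1 library had at least 6.16 CPM.

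**Figure D4:**
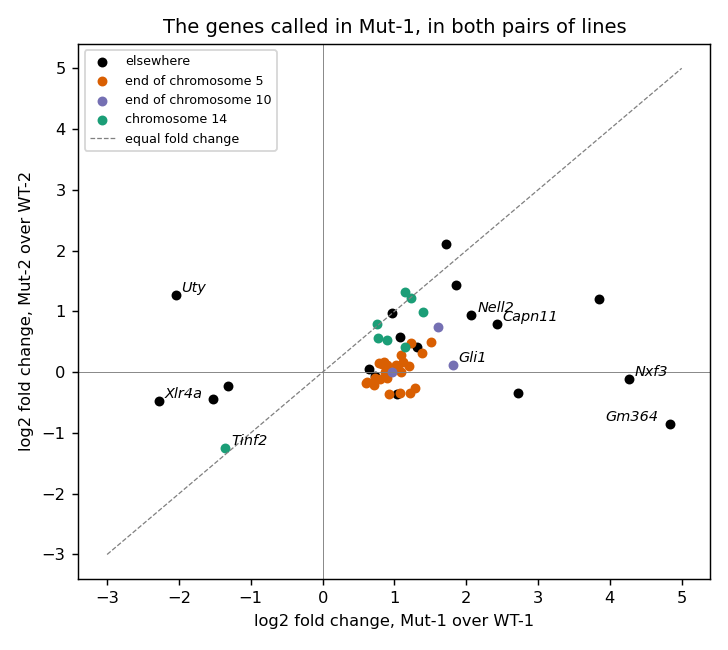
The 54 genes called in Mut-1, with the log2 fold change of Mut-1 over WT-1 on the x axis and that of Mut-2 over WT-2 on the y axis. Tinf2 lies near the dashed line of equal fold change. The 25 genes at the end of chromosome 5 have a median of 0.01 on the y axis and the 7 higher genes of chromosome 14 a median of 0.79, with some overlap between these groups.

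For groups of related genes, 36 lists with 880 symbols were used. Most of their members did not pass the test singly. Each list is therefore given by its counts, its median log2 fold change or both. These are to be read beside all 16533 genes, of which 8772 were positive with a median of 0.02. The lists were chosen with earlier results of these data known. Their counts and medians are therefore a description and not a test. Of the 880 symbols, not all of which were tested, 4 were called: Tinf2, Gli1, Spp1 and Spry2. Over all genes, 54 of 16533 tested (0.327%) were called. The medians of 29 of the 36 lists changed sign or moved by over 1.5 times when 1 of the 6 libraries was left out, and 8 of them changed sign. Ranges in brackets beside a median below are the lowest and highest of these 6 values, the leave-one-out range.

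Among 29 genes of shelterin, telomerase and telomere replication, Tinf2 was the 1 called, and the median log2 fold change was -0.04 (leave-one-out range -0.11 to 0.02). Terf1, which encodes the shelterin subunit TRF1, had 116, 169 and 167 CPM in Mut-1, against 96.9, 98 and 77 CPM in WT-1, without overlap. Its log2 fold change of 0.73 ± 0.15 had an adjusted edgeR p of 0.0621, which was 0.0126 without Mut-1 replicate 1 and lay between 0.00116 and 0.377 over the 16 alternatives. The subunit genes Terf2, Terf2ip, Acd, Pot1a and Pot1b had log2 fold changes between -0.24 and 0.18. Dkc1, a component of the telomerase ribonucleoprotein, had 149, 203 and 187 CPM in Mut-1, against 303, 291 and 192 CPM in WT-1, where replicate 3 overlapped Mut-1. Tert, the catalytic subunit, had 21.9, 15.2 and 13.8 CPM in Mut-1, against 20.1, 20.8 and 18.8 CPM in WT-1.

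Genes of homologous recombination and ALT were mostly on the lower side without any call: 34 of 42 were negative, with a median of -0.16, and 6 were lower without overlap (14.3%, against 7.56% of all genes). The summed share of counts of the list was nonetheless higher in Mut-1 on average, at 0.403%, 0.420% and 0.420% in Mut-1, against 0.382%, 0.377% and 0.404% in WT-1. The most negative was Asf1b, a histone chaperone, with 26, 18.2 and 27.1 CPM in Mut-1, against 40.9, 41.4 and 28.2 CPM in WT-1 (adjusted edgeR p 0.222). Dna2, a nuclease that resects DNA ends, had 54.7, 72.9 and 53.8 CPM in Mut-1, against 99.3, 93.98 and 67.6 CPM in WT-1. Atrx and Daxx, whose loss is a hallmark of ALT in human tumours, had log2 fold changes of -0.16 and -0.29, with overlapping libraries. The two-cell-stage genes, which include the Zscan4 cluster known to act on telomeres in embryonic stem cells, were positive for 26 of 33 with a median of 0.46. The median was 0.72 without Mut-1 replicate 1 and 0.31 without Mut-1 replicate 2 or 3. Of the members 7 were higher without overlap (21.2%, against 8.77% of all genes). The summed share of counts went the other way on average, with 0.0523%, 0.0625% and 0.0648% in Mut-1, against 0.0714%, 0.0699% and 0.0587% in WT-1. Zscan4c had 5.75, 9.04 and 6.95 CPM in Mut-1, against 6.09, 5.8 and 4.82 CPM in WT-1, so the lines overlapped. In Mut-2 against WT-2 the same list had a median of 2.07. The Zscan4 copies are near-identical, and their counts are uncertain singly.

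The pluripotency lists showed no call except Spp1 and Spry2, which the LIF and FGF lists hold. The naive pluripotency genes had a median of -0.11 over 25 members (leave-one-out range -0.28 to -0.07). Utf1, a chromatin protein of embryonic stem cells, had 86.7, 116 and 114 CPM in Mut-1, against 187, 192 and 165 CPM in WT-1 (adjusted edgeR p 0.274). Klf5, a Krüppel-like factor on chromosome 14, had 171, 185 and 191 CPM in Mut-1, against 110, 111 and 139 CPM in WT-1. Both were without overlap. Among formative and primed genes the median was 0.04 (-0.07 to 0.15). Of these 21 genes, 6 (28.6%) were lower and 2 (9.52%) higher without overlap, against 7.56% and 8.77% of all genes. Dnmt3a, a de novo DNA methyltransferase, had 47, 46.2 and 47.3 CPM in Mut-1, against 70.1, 67.4 and 69.2 CPM in WT-1 (log2 fold change -0.56, adjusted edgeR p 0.307). In the Nodal, BMP and Id list 14 of 17 were positive, with a median of 0.11 (leave-one-out range 0.02 to 0.25). Lefty1, the inhibitor of Nodal, had 34.1, 96.5 and 66.8 CPM in Mut-1, against 19.1, 17.9 and 26.9 CPM in WT-1 (log2 fold change 1.62 ± 0.51, adjusted edgeR p 0.286). The FGF and ERK feedback list had 13 of 21 members positive and a median of 0.23, which was 0.02 without Mut-1 replicate 1. Without overlap, 3 members (14.3%) were higher and 5 (23.8%) lower, against 8.77% and 7.56% of all genes. The immediate early gene Egr1 of the ERK pathway varied widely within the lines, with 23.3, 184 and 44.1 CPM in Mut-1, against 1.52, 0.769 and 13.1 CPM in WT-1. Wnt targets had 9 of 18 members positive and a median of 0.07, which was -0.24 without Mut-1 replicate 2 and -0.23 with a filter of at least 1 CPM in 3 libraries. The LIF list had a median of -0.05 (-0.03 to 0.05).

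Gli1, the transcription factor that is both effector and target of Hedgehog signalling, rose in Mut-1. It had 44.2, 37.1 and 46.1 CPM in Mut-1, against 9.95, 9.82 and 16.4 CPM in WT-1, a log2 fold change of 1.82 ± 0.23 with an adjusted edgeR p of 0.00319. Of the 15 Hedgehog genes tested it was the 1 called. In this list 11 were positive, with a median of 0.19 that was 0.02 without Mut-1 replicate 1. Without overlap, 4 (26.7%) were higher and 1 (6.67%) lower, against 8.77% and 7.56% of all genes. Hhip, a target that sequesters the ligands, had 1.45, 1.38 and 2.17 CPM in Mut-1, against 0.351, 0.237 and 0.504 CPM in WT-1 (adjusted edgeR p 0.0614, 0.0331 without WT-1 replicate 3, and 0.00544 to 0.420 over the alternatives). Ptch1, the receptor and best known target gene, had 36.6, 28.9 and 37.9 CPM in Mut-1, against 41, 41.6 and 40.6 CPM in WT-1, which is on the lower side. Smo, Sufu, Gli2 and Gli3 had log2 fold changes between -0.22 and 0.25. In Mut-2 against WT-2 the log2 fold change of Gli1 was 0.12.

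Several lists of differentiated cells had positive medians that depended on Mut-1 replicate 1, the library with the highest feeder share, and the part of feeder RNA in them was not tested. In bulk RNA, more cells of a type and more RNA per cell cannot be told apart. The feeder markers were positive for 34 of 35 genes, with a median of 0.44 that was 0.01 without Mut-1 replicate 1, and none was called. Col3a1, a fibrillar collagen, had 327, 156 and 109 CPM in Mut-1, against 98.7, 98.5 and 146 CPM in WT-1. The Hox list had a median of 0.38 (0.06 without that library), the primitive endoderm list 0.32 (0.06), the primitive streak and mesoderm list 0.31 (0.06), and the list of chemokines and secreted factors 0.46 (0.20). The epithelial list had a median of 0.31, which was 0.29 without Mut-1 replicate 1 and 0.15 without Mut-1 replicate 3, and the neural list had 0.27 (leave-one-out range 0.18 to 0.38). Gata4, a transcription factor of the primitive endoderm on chromosome 14, had 19.5, 11.5 and 16.2 CPM in Mut-1, against 5.91, 6.39 and 9.69 CPM in WT-1 (adjusted edgeR p 0.322). Endothelial, trophoblast and blood markers had medians of -0.04 (-0.08 to -0.01), 0.03 (-0.12 to 0.23) and 0.22 (0.05 to 0.27), over 11, 7 and 7 tested members. Of 28 p53 targets 14 were positive, with a median of -0.01 that was -0.16 without Mut-1 replicate 1.

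Interferon-stimulated and nucleic-acid sensing genes had a median of 0.53, beside 0.02 for all genes. Interferon target genes often carry a repeated GAAA element (ISRE) in their promoters, to which the transcription factors of the pathway bind. Of 38 members 32 were positive and 16 (42.1%) were higher without overlap, against 8.77% of all genes, while none was called. The median lay between 0.478 and 0.554 when any 1 of the 6 libraries was left out. Irf7, the transcription factor that amplifies the response, had 13, 11 and 14.5 CPM in Mut-1, against 3.98, 3.79 and 7 CPM in WT-1 (log2 fold change 1.38 ± 0.41, adjusted edgeR p 0.255). Isg15, a ubiquitin-like modifier, had 32.3, 23.5 and 30 CPM in Mut-1, against 12.3, 9.71 and 19 CPM in WT-1 (log2 fold change 1.06 ± 0.33, adjusted edgeR p 0.285). Ifi27, a mitochondrial interferon-induced protein gene, had 29.1, 34.2 and 58 CPM in Mut-1, against 16.5, 14.9 and 25.7 CPM in WT-1. The lines did not overlap in any of these 3 genes. The interferon-stimulated genes Ifit1 and Rsad2 had log2 fold changes of 0.94 and 1.43, whereas Irf3, Stat2 and Eif2ak2 were at -0.25, 0.04 and 0.02. In Mut-2 against WT-2 the median of the list was 0.39.

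The letters GAAANNGAAA were searched on both strands in the promoter window of each gene, from 250 bases before to 50 after its RefSeq start. They occurred in 13 of the 26 members with a window and in 3.99% of 27025 genes. The windows of 3 members (RefSeq, GRCm38.p6) are printed 5′ to 3′ on the strand of the gene because they show how the element is arranged in members of high fold change, with the matching letters in capitals. They are chr4:156200850-156200921 on the minus strand for Isg15, chr19:34640760-34640838 on the plus strand for Ifit1 and chr12:26456538-26456597 on the minus strand for Rsad2.
Isg15 promoter window: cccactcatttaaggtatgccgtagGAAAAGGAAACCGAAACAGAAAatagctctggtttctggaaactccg
Ifit1 promoter window: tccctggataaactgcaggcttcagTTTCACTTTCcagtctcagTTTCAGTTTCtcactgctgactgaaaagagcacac
Rsad2 promoter window: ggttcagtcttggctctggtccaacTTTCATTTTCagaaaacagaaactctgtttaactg
The element runs on the gene's strand in Isg15, where overlapping matches form 1 stretch, and on the opposite strand in Ifit1 and Rsad2. A match describes the letters only. Among the 10 members that were higher without overlap and had a window, 4 held a match. Stat2 and Eif2ak2, with log2 fold changes of 0.04 and 0.02, also hold the letters.

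MHC class I and antigen processing genes, many of them interferon targets, were positive for 13 of 16 with a median of 0.22, and 5 were higher without overlap (31.2%, against 8.77% of all genes). H2-D1, a class I heavy chain, had 158, 117 and 133 CPM in Mut-1, against 73.98, 73.3 and 94.1 CPM in WT-1 (log2 fold change 0.76 ± 0.17, adjusted edgeR p 0.106, 0.0324 without WT-1 replicate 3, and 0.00056 to 0.554 over the alternatives). H2-K1 had 68, 75.6 and 81.7 CPM in Mut-1, against 41.6, 42.1 and 46.2 CPM in WT-1. B2m, the light chain, had 288, 172 and 180.2 CPM in Mut-1, against 106, 102 and 157 CPM in WT-1. Class I genes are a family of similar sequence, so reads may have been shared among them.

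Genes of DNA replication and division lay on the lower side, with no call. Origin licensing genes were negative for 22 of 26 (median -0.24), replication fork and nucleotide supply genes for 24 of 29 (median -0.25), and mitosis and spindle checkpoint genes for 24 of 27 (median -0.19), of which 9 were lower without overlap (33.3%, against 7.56% of all genes). Without Mut-1 replicate 1 these medians were -0.14, -0.19 and -0.13. In the licensing and fork lists WT-1 replicate 3 lay below Mut-1 replicates 2 and 3, and Mut-1 replicate 1 was the lowest library: the median deviation of the licensing genes was -0.405, 0.027 and -0.03 in Mut-1, against 0.229, 0.212 and -0.051 in WT-1, and that of the fork genes was -0.333, 0.034 and -0.082 in Mut-1, against 0.287, 0.245 and -0.119 in WT-1. Of the members, 5 of 26 and 5 of 29 were lower without overlap, and the 3 genes next given are among those that did not overlap. Gins4, a subunit of the replicative helicase, had 36.9, 44.8 and 45.4 CPM in Mut-1, against 69.8, 70.9 and 50.4 CPM in WT-1 (adjusted edgeR p 0.234). Mad2l1, a spindle checkpoint protein gene, had 74.1, 77.3 and 81.9 CPM in Mut-1, against 105, 104 and 102 CPM in WT-1 (adjusted edgeR p 0.225). Rpa1, which coats single-stranded DNA, had 197, 247 and 228 CPM in Mut-1, against 322, 321 and 256 CPM in WT-1. All 3 genes were lower in every Mut-1 library. The meiotic and germline list was balanced, with 16 of 33 positive, but Stag3, a meiotic cohesin, had 28.1, 30.9 and 31.7 CPM in Mut-1, against 44, 49.2 and 44.7 CPM in WT-1 (adjusted edgeR p 0.115).

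Genes of sterol metabolism differed between the libraries of WT-1. The pathway of cholesterol synthesis, whose genes are switched on together by SREBP2 when sterols run low, was negative for all 23 genes, with a median of -0.72. None was called and none was without overlap, as the levels of WT-1 replicate 3 were within or near the range of Mut-1. Hmgcs1, which makes HMG-CoA, had 94.9, 102 and 81.2 CPM in Mut-1, against 287, 273 and 96.4 CPM in WT-1. Idi1, an isomerase of the pathway, had 12.3, 21.1 and 11.3 CPM in Mut-1, against 48.7, 53.3 and 16.1 CPM in WT-1. In these 2 genes WT-1 replicates 1 and 2 were high and the other 4 libraries low. Without WT-1 replicate 3 the median was -1.04 and 10 of the 23 were called lower, beside 134 of all 16927 genes in that setting. WT-1 then kept only its near-identical replicates 1 and 2. Without Mut-1 replicate 1 as well, the median was -1.01 and 1 of the 23 was called lower, beside 32 of all 16789 genes. The SREBP letters TCACCCCAC, searched on both strands, occurred in the window of 1 of 15 members (6.67%) and 0.614% of all genes. That member is Hmgcs1, shown with the letters in capitals at chr13:119690189-119690247 on the plus strand (GRCm38.p6).
Hmgcs1 promoter window: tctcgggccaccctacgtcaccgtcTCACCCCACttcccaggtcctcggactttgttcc

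Lysosome and autophagy genes went the other way, with 25 of 28 positive and a median of 0.40 (leave-one-out range 0.24 to 0.65). None was called with all 6 libraries. Without WT-1 replicate 3 the median was 0.65, with 12 called higher and 1 lower. In that setting, where WT-1 kept only its near-identical replicates 1 and 2, 313 of all 16927 genes were called higher and 134 lower. Without Mut-1 replicate 1 as well, the median was 0.52 with 6 called higher, beside 169 of all 16789 genes. Ctsb, a cathepsin gene on chromosome 14, had 681, 549 and 624 CPM in Mut-1, against 363, 372 and 481 CPM in WT-1 (adjusted edgeR p 0.102). The libraries of the lines did not overlap in this gene. Glycolysis and hypoxia genes had a median of -0.05 (leave-one-out range -0.18 to 0.05), nuclear genes of oxidative phosphorylation -0.12 (-0.18 to -0.01) and the mitochondrial genome 0.11 (0.04 to 0.18). Among lists of chromatin regulators, DNA methylation genes had a median of -0.20 (-0.24 to -0.15), H3K9 methylation and heterochromatin genes -0.10 (-0.09 to -0.01) and Polycomb repressive complex 2 genes -0.03 (-0.08 to -0.01). Imprinted genes had a median of 0.27, which was 0.06 without Mut-1 replicate 1, and Peg3, an imprinted zinc finger gene expressed from the paternal copy, had 58.6, 78.8 and 57.2 CPM in Mut-1, against 92.5, 96.2 and 90.9 CPM in WT-1.

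**Figure D5:**
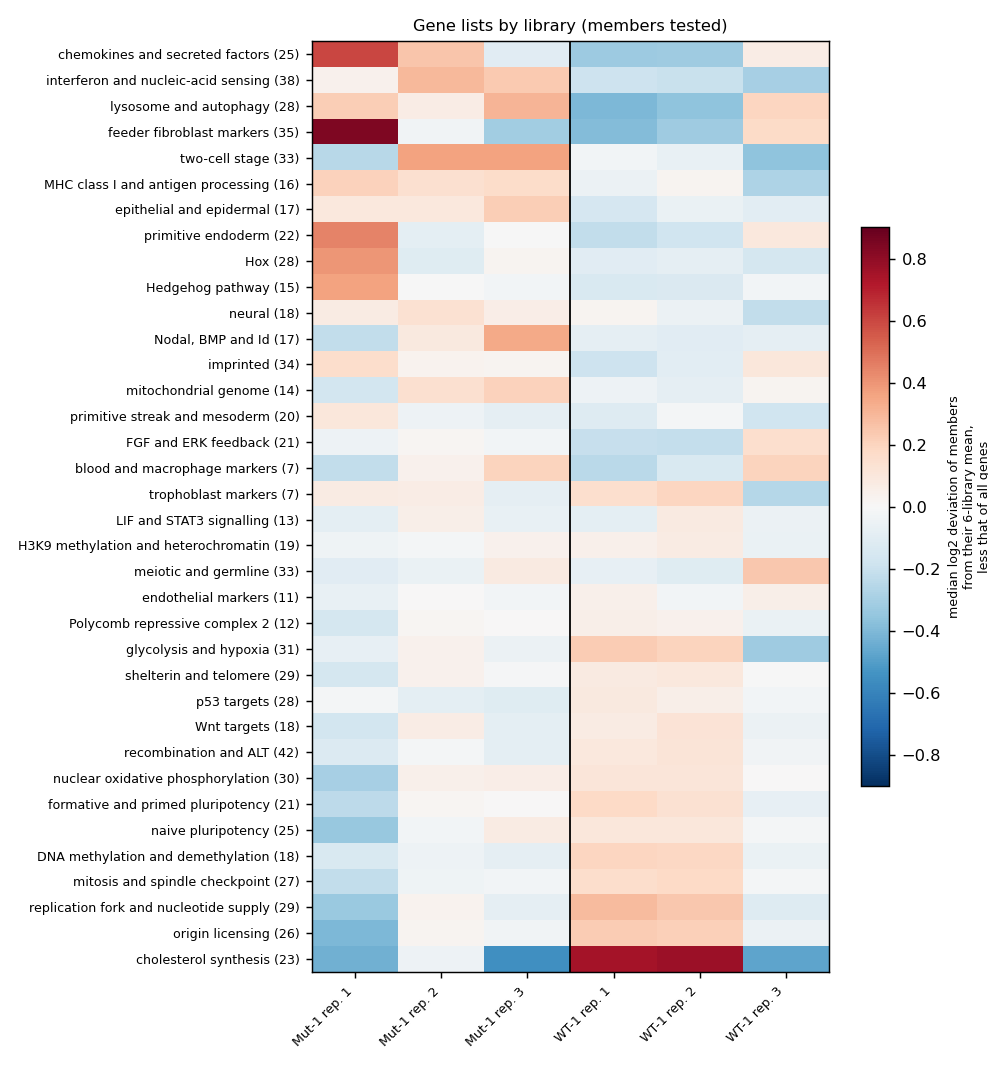
Median deviation of the members of each of 36 gene lists from their mean over the 6 libraries, on a log2 scale and less the median of all genes, with Mut-1 libraries in the 3 left columns and WT-1 libraries in the 3 right ones; the number of members tested is in brackets. Cholesterol synthesis is high in WT-1 replicates 1 and 2 alone, feeder markers are high in Mut-1 replicate 1, and the interferon list is above 0 in all Mut-1 and below 0 in all WT-1 libraries.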

How the data were processed

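The deposited values are whole-number read counts per gene, not normalized by the authors, 1 column per library. Per the submitters' processing notes the tools were HTSeq 0.6.0, HISAT2 2.1.0 and Bowtie2 2.2.3, and the build was GRCm38. No source used here names the annotation or whether counting used strand, so reads of antisense or overlapping genes may be mixed.

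Counts of all 12 libraries were fitted as 4 line groups with edgeR 4.0.16 (R 4.3.3), using TMM normalization, filterByExpr and the quasi-likelihood test, with Benjamini-Hochberg adjustment over all genes tested and a threshold of 0.05. A ± value beside a log2 fold change is its standard error. CPM values are TMM-normalized. Of 31641 symbols 29631 had a position (GENCODE M21, then RefSeq); 2005 did not match. Chromosome shifts use log2(CPM + 0.5) for genes averaging 5 CPM or more. Genes were named by a rule on fold change, lists, regions and the difference between pairs (14 per direction, 3 per list, 5 per region); other genes, such as family or pathway members given beside these, were chosen after their values were seen. DESeq2 1.42.0 and limma 3.58.1 were alternatives. The fits were tested on simulated data. The members and lists were chosen with earlier results of these data known.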

Additional observations from a re-analysis of the deposited data

Results flagged for a closer look

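In 12 genes the difference between Mut-1 and WT-1 was not the same as that between Mut-2 and WT-2, by edgeR's test of the difference itself at an adjusted p under 0.05. On the log2 scale the Mut-1 fold change minus the Mut-2 fold change was 5.69 for Gm364, 4.38 for Nxf3, 1.55 for Slc29a4, 1.42 for Lmtk2, 1.41 for Ccdc141, 1.08 for Rnf216, 0.99 for Fam220a and 0.97 for Pawr. These 8 genes were called higher in Mut-1 and were not called in Mut-2. Slc29a4, Lmtk2, Rnf216 and Fam220a are at the end of chromosome 5, and Pawr is at the end of chromosome 10.

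For 4 genes the difference of fold changes was negative. It was -3.31 for Uty and -2.54 for Ddx3y, both Y-linked. Uty had log2 fold changes of -2.04 in Mut-1 against WT-1 and 1.26 in Mut-2 against WT-2, and Ddx3y had -1.12 and 1.42. Their levels in Mut-2 were 3.25 to 4.01 CPM for Uty and 10.7 to 15.7 CPM for Ddx3y, against 1.31 to 1.69 CPM and 4.16 to 5.41 CPM in WT-2. It was -3.44 for the processed transcript AI662270 and -2.96 for the pseudogene Gm11543, which rose in Mut-2 with log2 fold changes of 2.12 and 3.29. In Mut-1 they had log2 fold changes of -1.32 and 0.33, neither of them called.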

How the results depend on the processing

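Main counts were 49 higher, 5 lower, 29 and 5 at a log2 fold change of at least 1, and 12 for the difference between pairs. In the same order DESeq2 gave 168, 47, 65, 16 and 91, and no filter on low counts gave 389, 154, 152, 31 and 302. With only the 6 libraries, 24 were higher and 18 passed the stricter rule. With feeder share as a covariate 8 were lower, all 8 by the stricter rule. WT-1 replicates 1 and 2 summed to 1 library gave 13, 2, 10, 2 and 3. The replicate block over 12 libraries gave 90 higher, 10 lower and 22 for the difference; within the 6 libraries it gave 46 calls, 32 of them shared with the main 54. Libraries with the same number share only that number: their deviations correlated at -0.13, 0.217 and 0.104. Leaving out 1 library gave 14 to 313 higher, 2 to 134 lower, and 2 to 72 for the difference. At the stricter rule it gave 10 to 168 higher and 2 to 40 lower. The highest values are those without WT-1 replicate 3, where WT-1 kept only its near-identical replicates 1 and 2. Leaving out Mut-1 replicate 1 and WT-1 replicate 3 together, an alternative chosen after seeing the data, gave 169, 32, 109, 15 and 65. The cause of these differences was not tested. Tinf2 was called in all alternatives, at log2 fold changes of -1.58 to -1.24. The shifts of the chromosome regions kept their sign and size, from 0.665 to 0.750, 0.315 to 0.342 and 0.333 to 0.377 for chromosomes 5, 10 and 14. Flt1, a receptor gene in the endothelial list and not called, ranged from -0.0341 without Mut-1 replicate 1 to 0.618 without Mut-1 replicate 3, beside 0.40 with all libraries. Uncalled genes with changes near 0 also crossed 0. Eif2ak2 was -0.00274 with RLE normalization and -0.00278 with DESeq2, Prim1 was -0.0107 with both, -0.00101 with at least 1 CPM in 3 libraries, and -0.000619 within the 6 libraries, -0.00682 there with the block. Stat2 was -0.0237 with the feeder covariate. Without Mut-1 replicate 1 and WT-1 replicate 3 together, Pot1a was 0.0125 and Stat2 was -0.267. Leaving out 1 library gave -0.00161 to 0.163 for Mdm2, -0.107 to 0.00424 for Gli2, -0.111 to 0.0182 for Pot1a, -0.0792 to 0.133 for Timeless, -0.200 to 0.189 for Stat2, -0.0327 to 0.0685 for Eif2ak2 and -0.110 to 0.0932 for Prim1.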
